A study of Homo sapiens with 4 samples.

Results

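The immediate-early, KLF and MAP kinase feedback genes were taken by symbol: all DUSP, SPRY, SPRED, FOS, JUN, EGR, KLF, ETV and IER genes in the annotation of the arrays. The rule found 63 genes with 78 probes, out of 14006 genes on the 14952 named probes of 37934. It matched symbols and used no measured value, but it was chosen with earlier results of these data known. SPRY1, SPRED1, SPRED2, SPRED3, EGR2 and KLF18 had no named probe in the annotation used here and are not analysed here. Affymetrix whole-transcript arrays measured RNA of 4 prostate cancer cell cultures, 1 array each, so no difference between single arrays has a replicate check.

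The cultures derive from 2 lines. PC3 came from a prostate cancer that had spread to bone and grows without androgen; LNCaP came from a lymph node deposit and depends on androgen. PC3-H and PC3-L were isolated from PC3 with the antibody IIH6C4, which binds the laminin-binding glycan, and their source names call them high and low for it. The labels give PC3-H low and PC3-L high motility and invasion. LNCaP is labelled high for the glycan with low motility and invasion. LNCaP-AI, labelled low for the glycan with high motility and invasion, was obtained from LNCaP by growth in serum stripped of steroids with charcoal; its description also names medium conditioned by perineural cells. All cultures were otherwise grown in RPMI1640 with serum. The free-text descriptions give the glycan level of the PC3 cultures the other way round; the titles and source names are used here, and the reverse reading turns the sign of each PC3 difference. Each group is 1 culture, and for the cultures selected from a line the labels do not say whether they are clones or pools.

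When a growth factor binds its receptor, RAS and the kinases below it activate ERK, which enters the nucleus and switches on immediate-early genes within minutes, before any new protein is made. FOS and JUN proteins pair to form AP-1, EGR proteins are zinc-finger activators, and IER genes encode small early-response proteins. A slower tier holds brakes on the same pathway: DUSP phosphatases remove the activating phosphates from MAP kinases, and Sprouty proteins act between receptor and RAF. ETV1, ETV4 and ETV5, the PEA3 group of ETS factors, are further well-known ERK outputs, and KLF factors bind GC-rich and CACCC promoter elements.

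The array labelled LNCaP-AI goes against its line label and is named so throughout. KLK3, a secreted protease that marks LNCaP, was 1781 on LNCaP and 61.2 for that array, close to its 59.0 on PC3-H and 63.4 on PC3-L. KLK3 is induced by androgen, and the label gives growth in serum stripped of steroids. The part of that growth in the low KLK3 value was not tested. FOLH1, another LNCaP marker, was 944 on LNCaP, 24.2 for that array, 23.4 on PC3-H and 23.0 on PC3-L. All 4 measured LNCaP markers were past 2-fold lower for that array than on LNCaP. The 7 PC3 markers had summed intensities of 3487 on PC3-H, 4135 on PC3-L, 306 on LNCaP and 3638 for the array labelled LNCaP-AI. Single markers did not all follow these sums. LCN2 was 1881, 46.1, 64.5 and 46.0 in the same order of arrays, so PC3-H alone was high. CXCL8 was 302, 497, 22.3 and 46.9, with the last value nearer LNCaP and 10.4-fold below PC3-L. Of the 7 markers 6, all but LCN2, were past 2-fold higher than on LNCaP for the array with the AI label. Against PC3-L, CXCL8 alone was past 2-fold lower and 0 were higher. The 4 measured LNCaP markers summed to 435, 187, 3613 and 212 in the same order. Between PC3-L and LNCaP 21 of 60 members were past 2-fold (11.7% of all genes were). For these 21 the array labelled LNCaP-AI lay within 2-fold of PC3-L at 17 and of LNCaP at 7, against 1156 and 459 of the 1305 such genes over the whole table. Marker sums of other cell types lay between 67.3 and 76.1 for 2 fibroblast genes, 170 and 198 for 4 endothelial genes, and 163 and 308 for 4 perineurial and Schwann genes, the last highest on LNCaP through ERBB3. The 3 leukocyte genes summed to 406 on PC3-H, 734 on PC3-L, 203 on LNCaP and 653 for the array labelled LNCaP-AI. That order was set by the lysosomal gene CD68, while LYZ was below the 40th percentile on each array; the part of CD68-bearing cells in the results below was not tested. In bulk RNA, fewer cells of a type and less RNA per cell cannot be told apart.

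Members were mostly quiet and a minority differed widely, with more of them higher than lower in each pair. Intensity here is the linear brightness of a probe, and a log2 difference was computed after adding 1. Genes counted only where the brighter array of a pair reached its 40th percentile over all probes (between 33.6 and 34.8); 60 of the 63 members did in each pair, and DUSP21, KLF8 and KLF17 did not. On PC3-L 12 of 60 members were past 2-fold higher than on PC3-H, where 8.58% of all genes were, and 3 were past 2-fold lower, against 3.77% of all genes. Quantile normalization gave 5 members lower, with JUNB and DUSP4 added, beside 483 of 11135 genes. In the LNCaP pair 12 of 60 members were past 2-fold higher on the array with the AI label, against 5.45% of all genes, and 5 were lower, against 5.13%. The members' median log2 difference was −0.02 for PC3 and 0.17 for LNCaP, beside −0.02 and 0.00 over all genes. With a trend with gene length removed, the PC3 pair held 680 higher and 488 lower genes over the whole table, in place of 955 and 419, and 11 and 3 members. With 1 array per group these counts are descriptions of the arrays.

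**Figure D1:**
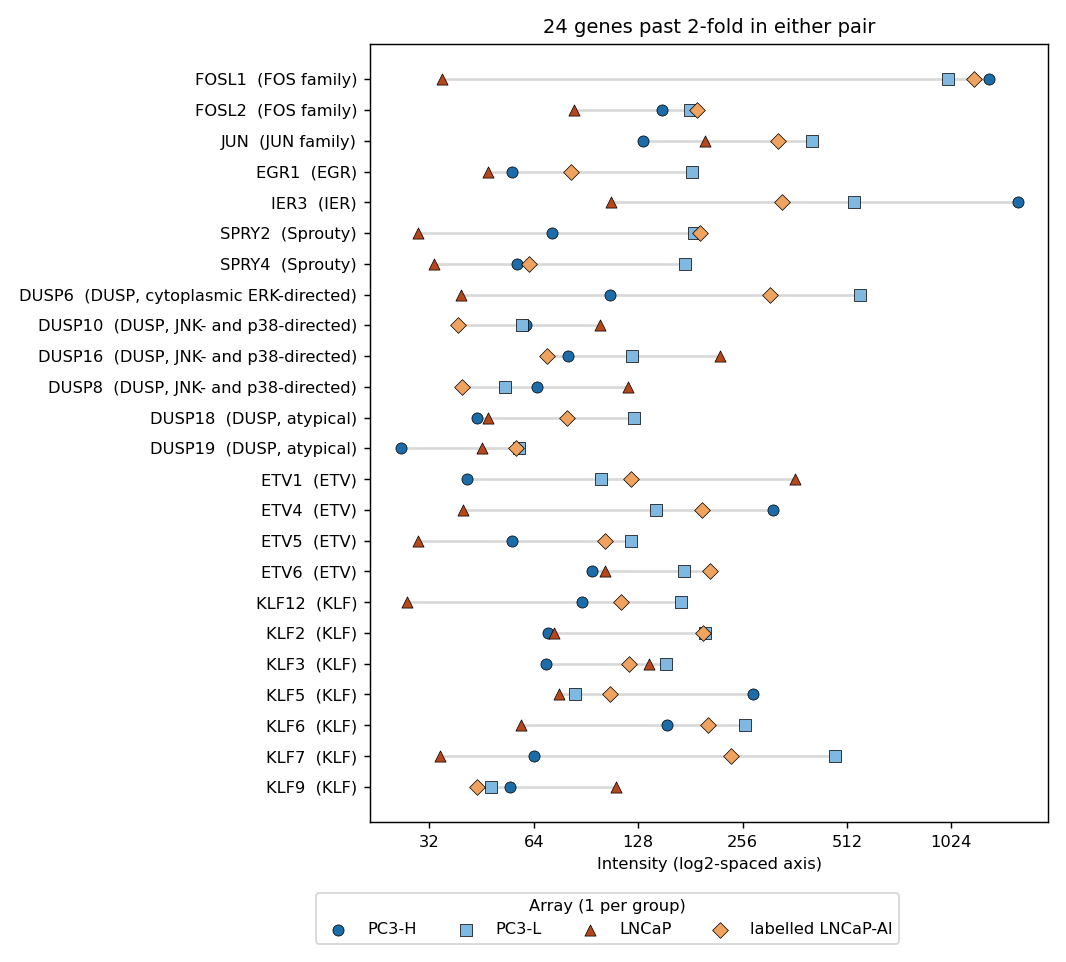
Intensity (log2-spaced axis) of the 24 members past 2-fold in either pair, 1 point per array; the grey line joins the lowest and highest array. LNCaP is the lowest array for FOSL1, DUSP6, SPRY2 and KLF7, and the highest for DUSP8, DUSP10, DUSP16, ETV1 and KLF9.

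The 2 pairs share no array, but the array labelled LNCaP-AI resembled PC3-L. It lay within 2-fold of PC3-L at 1156 of the 1305 genes past 2-fold between PC3-L and LNCaP. Agreement between the pairs can therefore not be read as independent. DUSP6, SPRY2, ETV5, KLF2 and KLF7 were past 2-fold higher in both, 5 of the 60 members, where 2.20% of all genes were. ETV5 was just within 2-fold in the PC3 pair with a pseudocount of 16 (log2 difference 0.95) or with the gene length trend removed (0.96). None of the members was past 2-fold lower in both (0 of 60, beside 1.06% of all genes). ETV4 and IER3 were lower on PC3-L but higher on the LNCaP-AI-labelled array (2 of 60, beside 0.139% of all genes), and ETV1 had the opposite pattern (1 of 60, beside 0.335%). Another 6 members were higher in the PC3 pair alone (beside 6.28% of all genes), 5 higher in the LNCaP pair alone (3.21%), 1 lower in the PC3 pair alone (2.32%) and 4 lower in the LNCaP pair alone (3.38%), in the sense that the other pair stayed within 2-fold; differences between the pairs were not tested. With PC3-H read as the low-glycan culture, as in the descriptions, the 5 members higher in both pairs would be the ones with opposite directions, and ETV1, ETV4 and IER3 the ones with the same.

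**Figure D2:**
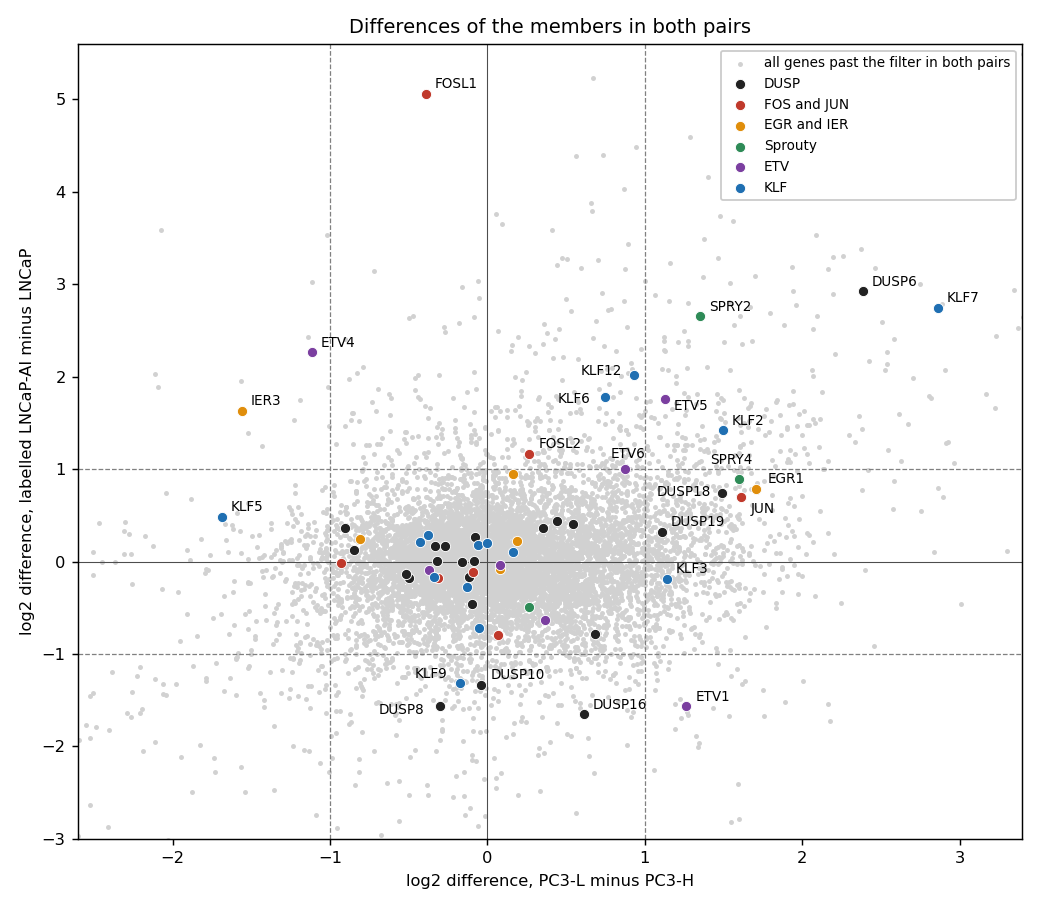
Log2 difference of PC3-L minus PC3-H (x axis) against the array labelled LNCaP-AI minus LNCaP (y axis). Coloured points are the 60 members past the filter, grey points are the 10755 genes past it in both pairs, of which 73 lie outside the drawn axes, and dashed lines mark 2-fold. DUSP6 and KLF7 stand farthest toward the upper right, FOSL1 at the top near 0 on the x axis, and ETV4 and IER3 at the upper left.

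Upstream sequences are shown for the members past 2-fold higher in both pairs that the RefSeq promoter table holds, together with EGR1, chosen after its values were seen because its promoter carries the element through which serum acts on immediate-early genes. FOSL1, ETV4, ETV5 and IER3 are named only. Each is the 250 bases before the most upstream start listed, 5′ to 3′ on the gene's strand, in GRCh38.p14; SPRY2 has 3 listed starts, KLF7 has 4 and the others 1. Capitals mark matches, on either strand, to a CArG box (the serum response factor element), to the ETS core CCGGAA or to the GC box GGGCGG; the AP-1 site TGAGTCA and the cAMP response element TGACGTCA were searched too and are in none of these 5 windows.
EGR1, chr5:138465229-138465478, plus strand: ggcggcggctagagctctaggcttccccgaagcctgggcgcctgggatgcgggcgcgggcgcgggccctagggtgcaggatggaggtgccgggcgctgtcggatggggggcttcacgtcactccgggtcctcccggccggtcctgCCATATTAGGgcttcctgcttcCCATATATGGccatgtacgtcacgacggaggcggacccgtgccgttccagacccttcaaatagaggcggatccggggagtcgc
DUSP6, chr12:89352502-89352751, minus strand: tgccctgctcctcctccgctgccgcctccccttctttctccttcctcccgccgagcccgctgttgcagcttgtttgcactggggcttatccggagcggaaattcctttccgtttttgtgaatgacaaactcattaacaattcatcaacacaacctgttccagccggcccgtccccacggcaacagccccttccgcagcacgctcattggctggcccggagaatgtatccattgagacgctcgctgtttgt
SPRY2, chr13:80341127-80341376, minus strand: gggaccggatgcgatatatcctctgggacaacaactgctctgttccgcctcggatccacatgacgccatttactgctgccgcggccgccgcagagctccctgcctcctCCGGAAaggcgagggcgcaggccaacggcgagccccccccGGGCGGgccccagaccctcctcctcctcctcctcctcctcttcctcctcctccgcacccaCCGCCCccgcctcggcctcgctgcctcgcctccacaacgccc
KLF2, chr19:16324576-16324825, plus strand: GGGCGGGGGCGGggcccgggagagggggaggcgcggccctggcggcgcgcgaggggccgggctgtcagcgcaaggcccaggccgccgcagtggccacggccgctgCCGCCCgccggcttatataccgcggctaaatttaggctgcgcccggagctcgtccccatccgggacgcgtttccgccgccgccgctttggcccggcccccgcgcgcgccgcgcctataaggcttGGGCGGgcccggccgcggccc
KLF7, chr2:207167247-207167496, minus strand: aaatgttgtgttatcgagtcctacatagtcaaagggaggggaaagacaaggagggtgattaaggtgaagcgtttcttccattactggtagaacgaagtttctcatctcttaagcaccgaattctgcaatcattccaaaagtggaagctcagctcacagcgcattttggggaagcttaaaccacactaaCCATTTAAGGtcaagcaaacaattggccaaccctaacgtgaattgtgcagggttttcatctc

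EGR1 carries CArG boxes whose first base lies 105 and 83 bases before the start, and KLF7 carries 1 at 62 bases. Of the 51 member genes in the table, these alone had a CArG box in their 250-base windows. It was in 2 of the 79 member windows (2.53%), beside 1.16% of all 35116 windows. Bases farther from a start, and the members not in the table, were not searched. SPRY2 has an ETS core 142 bases before its start, an element found in 14.5% of all windows and in 13.9% of the member windows. KLF2 has GC boxes at 250, 244, 145 and 21 bases and SPRY2 at 102 and 42; GC boxes are common, in 42.6% of all windows and in 64.6% of the member windows. The DUSP6 window holds none of the elements searched. The AP-1 site is in 4.20% and the cAMP response element in 1.65% of all windows, and in 1 (SPRY3, 1.27%) and 5 (DUSP1, DUSP8, ETV2, JUND and KLF11, 6.33%) of the member windows. A match describes letters in a window and says nothing of binding.

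Among the AP-1 genes the Fos-related gene FOSL1 differed most, and it separated LNCaP from the other arrays. FOSL1, which encodes the AP-1 subunit FRA-1, had intensities of 1314 on PC3-H, 1002 on PC3-L, 34.8 on LNCaP and 1192 for the array labelled LNCaP-AI. LNCaP alone was low, just above the 40th percentile of its array (34.2). The difference was 33.4-fold between the array labelled LNCaP-AI and LNCaP, understated if the LNCaP value is background, and −0.39 on the log2 scale between PC3-L and PC3-H. FOSL2, the related subunit FRA-2, was 150, 181, 83.7 and 189 on PC3-H, PC3-L, LNCaP and the array labelled LNCaP-AI, with LNCaP again lowest (2.25-fold). FOS and FOSB, the classical transient members, stayed between 57.6 and 70.6 and between 55.1 and 69.7 and were within 2-fold in each pair; a second probe of each gave the same result.

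JUN, the activating partner of FOS proteins, was 132 on PC3-H, 407 on PC3-L, 199 on LNCaP and 325 for the array labelled LNCaP-AI. The low-glycan array was the higher of each pair, by 3.06-fold for PC3 and 1.62-fold for LNCaP. JUNB, often a weaker activator than JUN, went the other way in the PC3 pair, with 264 on PC3-H against 138 on PC3-L (1.91-fold lower), and was 124 and 122 in the LNCaP pair. JUND, the constitutive member, was highest on LNCaP at 271, against 136 on PC3-H, 142 on PC3-L and 155 for the array labelled LNCaP-AI. The 3 JUN genes thus had different orders over the arrays, and of the 7 FOS and JUN genes JUN alone was past 2-fold in the PC3 pair, FOSL1 and FOSL2 alone in the LNCaP pair.

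EGR1, a zinc-finger activator induced by ERK and serum response factor, was 55.4 on PC3-H, 183 on PC3-L, 47.2 on LNCaP and 82.0 for the array labelled LNCaP-AI. PC3-L stood above the other 3 arrays, 3.27-fold over PC3-H and 2.22-fold over the array labelled LNCaP-AI. Its second, dimmer probe had a log2 difference of 0.47 in the PC3 pair, where the brighter probe had 1.71, and the mean over probes gave 1.09. EGR3 stayed between 44.2 and 48.0 and EGR4 between 32.6 and 39.3, near the filter.

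IER3, an ERK-induced survival gene, was 1589 on PC3-H, 538 on PC3-L, 107 on LNCaP and 333 for the array labelled LNCaP-AI by its brightest probe. The low-glycan array was 2.95-fold lower in the PC3 pair and 3.10-fold higher in the LNCaP pair. The 11 probes named for IER3 did not all give this pattern. For 6 bright probes the log2 difference lay between −1.56 and −1.44 in the PC3 pair and between 1.63 and 2.04 in the LNCaP pair. For the other 5, dimmer on 3 of the 4 arrays, it lay between −1.11 and −1.10 and between −0.34 and −0.32. Each set was thus past 2-fold lower on PC3-L, while the LNCaP pair had opposite signs by set. The mean over probes gave 0.91 in the LNCaP pair. The 5 dimmer probes lay between 86.2 and 86.8 on PC3-L, and several bright ones were also nearly alike on each array. The 11 probes can therefore not be counted as independent measurements. IER2, a nuclear early-response gene, was 145, 162, 115 and 224 in the same order of arrays, just within 2-fold in the LNCaP pair (1.94-fold higher), and IER5 was 110, 62.3, 65.2 and 77.5.

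**Figure D3:**
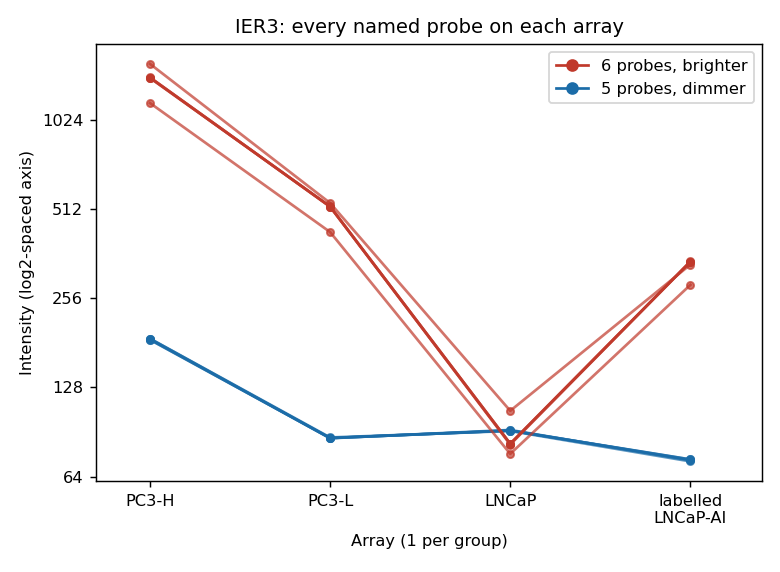
Intensity (log2-spaced axis) of each of the 11 probes named for IER3 on the 4 arrays, 1 line per probe. The 6 brighter probes are lowest on LNCaP, between 76.3 and 107, whereas the 5 dimmer probes are lowest on the array labelled LNCaP-AI, between 72.0 and 73.1.

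Among the feedback genes DUSP6 and the Sprouty genes SPRY2 and SPRY4 were higher on the low-glycan arrays. DUSP6, a cytoplasmic phosphatase specific for ERK, was 106 on PC3-H, 560 on PC3-L, 39.4 on LNCaP and 306 for the array labelled LNCaP-AI. The low-glycan array was the higher of each pair, by 5.23-fold for PC3 and 7.60-fold for LNCaP. SPRY2, which restrains signalling from receptor to RAF, was 72.0, 185, 29.7 and 193 in the same order of arrays (2.55-fold and 6.31-fold). SPRY4, a second member with the same role, was 57.2, 175, 32.9 and 62.1, so that the array labelled LNCaP-AI was near PC3-H and 2.79-fold below PC3-L. The SPRY4 difference in the LNCaP pair was 1.86-fold, within the threshold. On LNCaP both SPRY2 and SPRY4 were below the 40th percentile of that array (34.2), so their folds in that pair rest on a dim value. SPRY3 was within 2-fold in both pairs.

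Of 23 DUSP genes 22 passed the filter. In the PC3 pair 3 were past 2-fold higher and 0 lower, beside 8.58% and 3.77% of all genes, and in the LNCaP pair 1 was higher and 3 lower, beside 5.45% and 5.13%, with medians of −0.09 and 0.07. The other cytoplasmic ERK phosphatases were within 2-fold in both pairs. DUSP7 was 232 on PC3-H, 129 on PC3-L, 109 on LNCaP and 119 for the array labelled LNCaP-AI, and DUSP9 was 78.0, 54.2, 65.0 and 59.0. The nuclear inducible phosphatases DUSP1, DUSP2, DUSP4 and DUSP5 were all within 2-fold in both pairs. DUSP1, which acts on p38, JNK and ERK and is itself an immediate-early gene, was 317, 511, 218 and 126, lowest on the array labelled LNCaP-AI and 4.02-fold below PC3-L there. DUSP4, closely related to it, was 187 on PC3-H against 99.3 on PC3-L (1.88-fold lower), while DUSP5, a nuclear ERK phosphatase, was 121, 178, 53.7 and 71.5.

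The phosphatases directed at the stress kinases JNK and p38 were highest on LNCaP, and all 3 were past 2-fold lower on the array labelled LNCaP-AI. DUSP8 was 65.2 on PC3-H, 52.7 on PC3-L, 120 on LNCaP and 39.7 for the array labelled LNCaP-AI (2.97-fold lower than LNCaP). DUSP10 was 60.9, 59.3, 99.0 and 38.7 (2.52-fold lower), and DUSP16 was 80.2, 123, 221 and 69.7 (3.14-fold lower). None was past 2-fold in the PC3 pair, where they spanned −0.30 to 0.61 on the log2 scale. Put against LNCaP in place of the array labelled LNCaP-AI, PC3-L was past 2-fold lower for DUSP8 alone of the 3, with log2 differences of −0.73 for DUSP10 and −0.84 for DUSP16.

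**Figure D4:**
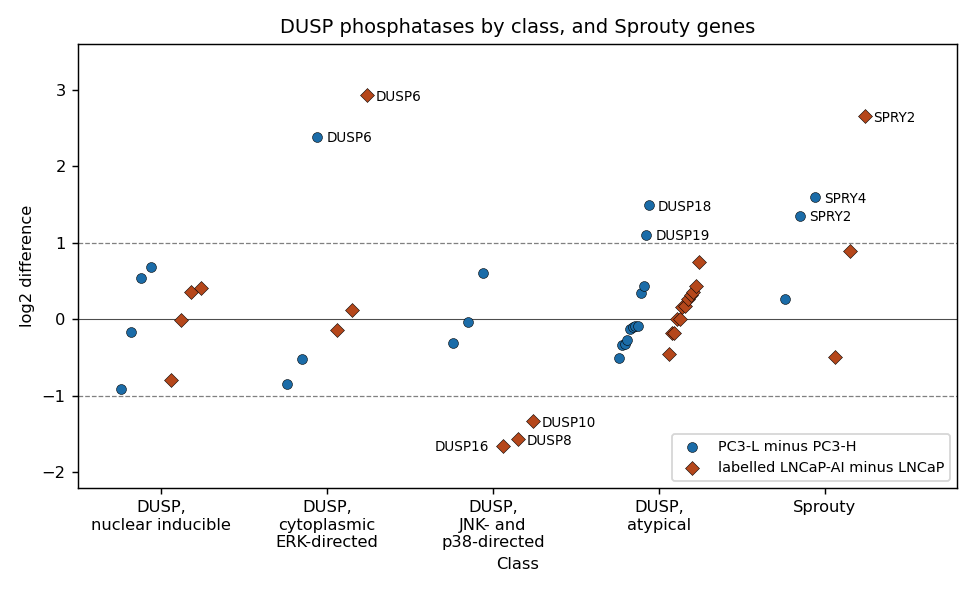
Log2 difference of each DUSP and Sprouty gene past the filter, by class (x axis), in the PC3 pair (blue circles) and the LNCaP pair (brown diamonds); dashed lines mark 2-fold. DUSP6 is above 2 in both pairs, and DUSP8, DUSP10 and DUSP16 are below −1 in the LNCaP pair only.

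Atypical DUSP genes encode small phosphatases, many of which have substrates other than MAP kinases. Of 12 past the filter, 2 were past 2-fold higher and 0 lower on PC3-L than on PC3-H, beside 8.58% and 3.77% of all genes. In the LNCaP pair 0 were higher and 0 lower, beside 5.45% and 5.13%. In a class this small these counts cannot be told from those shares. DUSP18 was 43.8 on PC3-H, 125 on PC3-L, 47.2 on LNCaP and 79.9 for the array labelled LNCaP-AI. DUSP19, at 26.4, 58.1, 45.3 and 56.9, was dim throughout, with PC3-H below the 40th percentile, and had a log2 difference of 0.81 in the PC3 pair with a pseudocount of 16. The rest lay between −0.50 (DUSP3) and 0.44 (DUSP11) in the PC3 pair, and the whole class between −0.46 (DUSP23) and 0.75 (DUSP18) in the LNCaP pair.

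The PEA3 factors ETV1, ETV4 and ETV5 took 3 different patterns. ETV5 was 55.3 on PC3-H, 122 on PC3-L, 29.7 on LNCaP and 103 for the array labelled LNCaP-AI, higher on the low-glycan arrays (2.18-fold and 3.38-fold). The ETV5 value on LNCaP was below the 40th percentile of that array (34.2). ETV4 was 313, 144, 40.04 and 196, so that PC3-H was highest and LNCaP lowest. The low-glycan array was 2.17-fold lower in the PC3 pair and 4.80-fold higher in the LNCaP pair. ETV1 was 41.0, 99.8, 363 and 122, highest on LNCaP, a line long known for an ETV1 rearrangement. It was 2.40-fold higher on PC3-L than on PC3-H and, in the LNCaP pair, 2.95-fold lower on the array labelled LNCaP-AI.

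Other ETV genes differed less. ETV6, a repressor, was 94.3 on PC3-H, 174 on PC3-L, 102 on LNCaP and 207 for the array labelled LNCaP-AI (1.84-fold and 2.01-fold higher, the second at the threshold, with a log2 difference of 0.91 at a pseudocount of 16). ETV3, another repressor, was highest on LNCaP at 109 and otherwise between 70.1 and 90.6. ETV2, a factor of blood vessel development, and ETV7 were dim, with intensities between 41.6 and 47.4 and between 31.7 and 41.2.

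Of 17 KLF genes 15 passed the filter. In the PC3 pair 3 were past 2-fold higher and 1 lower, beside 8.58% and 3.77% of all genes, and in the LNCaP pair 4 were higher and 1 lower, beside 5.45% and 5.13%; 1 of 15 is near the share of all genes. KLF7, known from neurons and fat cells, was 63.99 on PC3-H, 471 on PC3-L, 34.4 on LNCaP and 237 for the array labelled LNCaP-AI. For KLF7 the low-glycan array was the higher of each pair, by 7.27-fold in the PC3 pair, the largest member difference there, and 6.72-fold in the LNCaP pair. KLF2, best known as a flow-induced factor of endothelium, was 70.2, 200, 73.0 and 197, nearly the same within each glycan label (2.82-fold and 2.68-fold). KLF6, an injury-response gene, was 154, 260, 58.6 and 203 (1.68-fold and 3.43-fold), and KLF12, a repressor, was 88.3, 170, 27.5 and 114 (1.91-fold and 4.04-fold). LNCaP was the lowest array for both, and the low-glycan array was the higher of each pair. The KLF12 difference in the PC3 pair was, however, 0.28 on the log2 scale with the gene length trend removed, in place of 0.93. The KLF12 value on LNCaP was below the 40th percentile of that array (34.2).

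KLF5, a factor of proliferating epithelium, was 274 on PC3-H and 84.1 on PC3-L (3.22-fold lower), and 75.7 on LNCaP and 106 for the array labelled LNCaP-AI. PC3-H alone was high. KLF9, a hormone-responsive gene, was 54.5, 48.1, 111 and 43.9, so LNCaP alone was high and the array labelled LNCaP-AI was 2.49-fold lower. KLF3, a repressor, was 69.3, 154, 137 and 120, so PC3-H alone was low (2.20-fold, with a log2 difference of 0.99 at a pseudocount of 16). KLF4, a partner of KLF2 in endothelium and a differentiation factor in epithelium, was flat, between 83.4 and 95.9. KLF10, induced by TGF-beta, was 314, 241, 125 and 153 and within 2-fold in each pair. The remaining KLF genes were all within 2-fold in each pair.

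The array labelled LNCaP-AI was also set against PC3-L, which it resembled; this comparison shares an array with each pair. Of 59 members past the filter 0 were past 2-fold higher there, against 0.832% of all genes, and 4 (6.78%) were lower, against 1.96%. These were DUSP1, SPRY4, DUSP5 (2.47-fold) and EGR1. All 4 are inducible by ERK or serum in many cell types, a trait for which families in the rule are known. Other inducible members, among them DUSP2, DUSP4, EGR3, FOS and IER2, were within 2-fold here. KLF7 was just within the threshold at 1.98-fold lower. With the mean over probes, 2 members, DUSP1 and SPRY4, were lower. The second, dimmer probes of DUSP5 and EGR1 had log2 differences of −0.04 and −0.18 against PC3-L.

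Low against high glycan label was fitted over all 4 arrays with limma, with the labelled line in the model, which left 1 residual degree of freedom. At an adjusted p of 0.05, 0 of 11503 genes (0%) and 0 of 60 members passed; at an unadjusted p of 0.05, 1013 genes and 12 members did. With the glycan labels of the PC3 cultures turned, as in the descriptions, 300 genes and 4 members did, and the lowest adjusted p of a member was 0.998 in place of 0.191 (limma). KLF7 had a log2 difference of 2.80 (SE 0.246, limma adjusted p = 0.191) and DUSP6 of 2.66 (SE 0.277, limma adjusted p = 0.197), each higher in 2 of 2 pairs. KLF2 followed with 1.46 (SE 0.246, limma adjusted p = 0.246), SPRY2 with 2.00 (SE 0.398, limma adjusted p = 0.285) and ETV5 with 1.44 (SE 0.288, limma adjusted p = 0.285). No member passed the threshold in this fit. Its 1 residual degree of freedom holds the disagreement between the 2 pair differences. The fit therefore does not measure a spread between replicate arrays. The line covariate uses a label that the array labelled LNCaP-AI goes against.

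Genes upstream of the members were read from lists of pathway members. Of all genes, 8.58% were past 2-fold higher and 3.77% lower in the PC3 pair, and 5.45% and 5.13% in the LNCaP pair. The medians over all genes were −0.02 and 0.00. Of growth factor ligands past the filter, 4 of 15 were past 2-fold higher and 3 lower on PC3-L than on PC3-H, and 4 of 13 higher and 0 lower in the LNCaP pair (medians −0.21 and 0.34). FGF2 was 179 on PC3-H, 767 on PC3-L, 31.4 on LNCaP and 204 for the array labelled LNCaP-AI. The ERBB ligand EREG was 44.9, 166, 28.2 and 86.7, higher on the low-glycan array of each pair, whereas HBEGF, another ERBB ligand, was 388 on PC3-H and between 42.4 and 62.3 elsewhere. Receptor tyrosine kinases were higher in 0 and lower in 3 of 14 in the PC3 pair, and higher in 3 and lower in 1 in the LNCaP pair (medians −0.25 and 0.03). MET, the receptor of hepatocyte growth factor, was 571, 609, 34.8 and 449, with LNCaP alone low, as for FOSL1.

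RAS to ERK cascade genes were higher in 5 and lower in 0 of 19 in the PC3 pair, beside 8.58% and 3.77% of all genes. They were higher in 2 and lower in 0 of 20 in the LNCaP pair, beside 5.45% and 5.13%. The medians were 0.13 and 0.37. SOS1, which loads RAS with GTP, was 110 on PC3-H, 291 on PC3-L, 85.9 on LNCaP and 201 for the array labelled LNCaP-AI, and RRAS, a RAS relative, was 414, 834, 173 and 573. Stress MAP kinase genes were higher in 2 and lower in 3 of 17 in the PC3 pair, and higher in 1 of 17, MAP3K7, and lower in 0 in the LNCaP pair (medians 0.21 and 0.07). Other brakes of the pathway were higher in 3 of 10 in each pair, and lower in 1 and 2 (medians −0.47 and 0.36). ERRFI1, a feedback inhibitor of ERBB receptors, was 343, 763, 158 and 669 in the same order of arrays, and RASA3, which switches RAS off, was 119, 315, 73.4 and 318. Both were higher on the low-glycan array of each pair, whereas the ERBB inhibitor LRIG1 was lower there, at 115, 41.8, 160 and 59.0.

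Downstream and partner genes were mixed. The shares of all genes were 8.58% higher and 3.77% lower in the PC3 pair, and 5.45% and 5.13% in the LNCaP pair. In lists this short, a count of 1 cannot be told from those shares. Other ERK-responsive genes were higher in 1 and lower in 1 of 11 in the PC3 pair, and higher in 4 and lower in 0 in the LNCaP pair (medians −0.24 and 0.41), and UPP1 was higher in both (127.8, 398, 39.9 and 114). Other immediate-early genes were higher in 3 and lower in 1 of 11, and higher in 2 and lower in 2 (medians −0.11 and 0.31). GEM, a small GTPase gene, was higher on both low-glycan arrays (39.4, 150, 29.96 and 82.7), while ATF3, an AP-1 partner, was highest on LNCaP at 92.2 and between 41.0 and 58.6 elsewhere. ATF, MAF and other AP-1 partners were higher in 4 and lower in 1 of 17, and higher in 1 and lower in 1 (medians −0.03 and 0.06), with ATF2 higher in both (102, 324, 140 and 281). SP factors, relatives of the KLF genes, were past 2-fold in 0 of 8 and 0 of 9 (medians 0.03 and 0.05).

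Other ETS factors were higher in 2 and lower in 2 of 15 in the PC3 pair, beside 8.58% and 3.77% of all genes. They were higher in 4 and lower in 2 of 16 in the LNCaP pair, beside 5.45% and 5.13%. The medians were −0.08 and 0.10. ETS1 was 185 on PC3-H, 430 on PC3-L, 42.6 on LNCaP and 225 for the array labelled LNCaP-AI, and FLI1 was 42.1, 146, 34.7 and 111, both higher on the low-glycan array of each pair. Known AP-1 targets were higher in 5 and lower in 0 of 9 in the PC3 pair, and higher in 7 and lower in 0 of 9 in the LNCaP pair (medians 1.40 and 1.28, beside −0.02 and 0.00 over all genes). These lists overlap line markers: CD44, VIM and CXCL8 of the AP-1 targets are also PC3 markers. MMP1, the collagenase, was 27.4, 3143, 28.2 and 1664. It was dim on PC3-H and on LNCaP alike, while FOSL1 was 1314 on PC3-H and 34.8 on LNCaP, so the 2 genes had different orders over the arrays.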

How the data were processed

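Total RNA from 4 cultures was labelled with the WT Terminal Labeling Kit and hybridised to 1 array each, per the labels' protocols. The deposited table holds linear intensity values between 17.6 and 11188, with array medians of 39.8 to 41.2; probe summary, background correction and normalization are not given in the sources used here. The number of arrays limits the precision. Of 37934 probes 14952 had 1 gene symbol, 0 several and 22982 none; all 63 members matched the RefSeq gene table (GRCh38.p14) by Entrez identifier. The brightest probe by mean stood for a gene; 6 members had over 1 probe. Differences are of log2(intensity + 1), which understates the change of dim genes, for genes at or above the 40th percentile on the brighter array, and 2-fold counts as past. limma 3.58.1 (R 4.3.3), two-sided with Benjamini-Hochberg adjustment, was tested on simulated data. Members, lists and tests were chosen with earlier results of these data known. Members past 2-fold in either pair are named, and up to 3 of each list per pair. Alternatives were pseudocount 16, no filter, the 60th percentile, median centring, quantile normalization, the mean over probes and a gene length trend. Promoter sequences are from RefSeq (51 members matched).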

Additional observations from a re-analysis of the deposited data

Results flagged for a closer look

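In 3 members the low-glycan array was past 2-fold in opposite directions in the 2 pairs. The difference between the pairs was not tested, since each pair holds 1 array per group. The opposite directions rest on PC3-L as the low-glycan culture. Under the reverse reading of the descriptions these 3 would have the same direction in both pairs. DUSP6, SPRY2, ETV5, KLF2 and KLF7 would have opposite ones. The array labelled LNCaP-AI also resembled PC3-L, so the LNCaP pair cannot be read as a contrast of glycan label within a line. Between PC3-H and LNCaP, both labelled high for the glycan, log2 differences were −3.11 for ETV1, 2.94 for ETV4 and 3.88 for IER3. ETV1 had a log2 difference of 1.26 for PC3 and −1.56 for LNCaP, with its highest intensity on LNCaP. ETV4 had −1.11 and 2.26, with its lowest on LNCaP. IER3 had −1.56 and 1.63 by its brightest probe, and its 5 dimmer probes were between −0.34 and −0.32 in the LNCaP pair.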

How the results depend on the processing

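Of 15 members called in the PC3 pair 12 stayed past 2-fold under all 7 other settings, with DUSP19, ETV5 and KLF3 within 2-fold under at least 1; of 17 in the LNCaP pair 15 stayed, with ETV6 and IER3 within 2-fold under at least 1. None changed sign. Quantile normalization gave 5 members lower in the PC3 pair in place of 3, adding JUNB (−1.06) and DUSP4 (−1.01), beside 483 genes in place of 419. The mean over probes gave 2 members lower for the array labelled LNCaP-AI against PC3-L in place of 4. PC3-L in place of the array labelled LNCaP-AI, chosen after seeing the data, gave 3 members lower than on LNCaP in place of 5, and 18 higher in place of 12; over all genes it gave 501 lower in place of 571 and 804 higher in place of 607. DUSP1 turned from −0.79 to 1.22 there. Under limma the filter at the 60th percentile gave 1 gene and 0 members past the threshold (lowest adjusted p of a member 0.0735); pseudocount 16, no filter, median centring, quantile normalization and the mean over probes gave 0 genes, with lowest adjusted p of a member between 0.176 and 0.441, and PC3 glycan labels turned gave 0 genes and 0.998. The gene length trend was not removed in that fit. The labelled line is a block in the limma fit; the numbers in the titles differ between all groups and pair no arrays. Intensities near the floor of about 18 carry no detection call. Background there would shrink a fold, while noise on a single array could raise or lower it. The fold of a dim member is therefore uncertain.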
